A study of Mus musculus with 6 samples.

Results

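The genes described here were Gas5, Snhg1, Snhg3, Snhg5, Snhg6, Snhg8 and Snhg12, which are noncoding host genes of small nucleolar RNAs (snoRNAs). They were taken by name from a table of 53023 genes, and each of the 7 names matched 1 row. RNA-seq libraries came from ICR mouse embryos at the two-cell stage, at 28 h post insemination (hpi), with 2 libraries per group and 5 embryos pooled in each library. Embryos of the non-injection group received no mRNA. Zygotes of the other groups were injected at 1.5–3 hpi with 100 ng/µl mRNA for wild-type PIASy (PIASy-WT), a protein that promotes the attachment of SUMO to other proteins, or for its ligase mutant C335F (PIASy-Mut), and those with fluorescence at 9 hpi were kept. The controls that were not injected also did not go through the fluorescence selection, so injection and PIASy-WT cannot be told apart in that comparison, whereas PIASy-Mut embryos shared both steps.

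snoRNAs are short RNAs of the nucleolus that guide the chemical modification and cleavage of ribosomal RNA. C/D box snoRNAs guide 2′-O-methylation and H/ACA box snoRNAs guide pseudouridylation. In mammals most of them are cut out of the introns of a longer transcript, the host. Some hosts encode ribosomal proteins or nucleolar proteins, while Gas5 and the Snhg genes are spliced RNAs without a known main protein product. Several of these hosts begin with a 5′ terminal oligopyrimidine (TOP) stretch, which is also the mark of ribosomal protein mRNAs, and spliced Gas5 RNA is a known substrate of nonsense-mediated decay. Gas5 was named for its accumulation in growth-arrested cells and can bind the glucocorticoid receptor. Ribosomal protein genes were therefore read beside these hosts as a reference.

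The snoRNAs that lie inside the 7 genes on the same strand are given to show what the hosts carry. Their positions are on mm10, and their sequences came from GENCODE M21 transcripts. There were 29 such rows with 27 names, 60–205 bases long, of which 10 lay in Gas5, 8 in Snhg1, 5 in Snhg12, 2 each in Snhg3 and Snhg5, and 1 each in Snhg6 and Snhg8. The following 4 are shown because they stand for both snoRNA classes and for the 2 most abundant hosts. Capitals mark the box C core TGATGA and the box D CTGA of C/D snoRNAs, and the ACA near the 3′ end of an H/ACA snoRNA. Both Snord50 copies in Snhg5 are printed because they are nearly identical.
Snord47 in Gas5 (chr1:161038082-161038158, + strand): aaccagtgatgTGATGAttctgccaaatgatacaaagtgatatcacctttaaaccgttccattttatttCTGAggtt
Snord50a in Snhg5 (chr9:88521529-88521600, − strand): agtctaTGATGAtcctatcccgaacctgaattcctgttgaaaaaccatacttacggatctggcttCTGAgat
Snord50b in Snhg5 (chr9:88521797-88521868, − strand): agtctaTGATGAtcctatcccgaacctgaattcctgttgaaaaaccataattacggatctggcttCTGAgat
Snora24 in Snhg8 (chr3:123507937-123508066, − strand): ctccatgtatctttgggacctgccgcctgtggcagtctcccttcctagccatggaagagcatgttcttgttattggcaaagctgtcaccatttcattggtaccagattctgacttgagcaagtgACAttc
Snord50a and Snord50b, each 72 bases long, differed at 1 base, which is C50A when positions are counted from 1 at the 5′ end of Snord50a. Of the 29 rows, 18 held TGATGA followed by CTGA, 6 held ACA near the 3′ end and 5 held neither in these exact letters.

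No snoRNA fragment was listed for any of these 29 rows, which were at 0 in all 6 libraries. A count of 0 allows up to 3 fragments in a library, and this limit covers counting error only. Over the whole table, 136 of 1507 snoRNA rows had any fragment and 27 had more than 3 in a library. The cDNA kit primes from poly(A) tails, which mature snoRNAs lack. Of the 29 rows, 24 lay wholly within sequence counted for the host, 1 in part and 4 outside it, where annotated host isoforms retain introns. The values below therefore describe the host transcripts, and whether fragments touching 2 genes were counted is not given in the sources used here.

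The sequence around the transcription start was examined next, since it is a feature the choice of genes did not use. RefSeq promoters on GRCm38.p6, the same assembly as mm10, gave 7 starts for 6 of the genes, with 2 starts for Gas5. Windows run from 40 bases before the start to 30 after it. Capitals mark TATAAA or TATATA between 40 and 15 bases before the start, and a C within 5 bases of the start that opens a run of at least 5 pyrimidines. These 5 windows are shown because they hold both motifs, or 1, or none.
Gas5, second start (chr1:161035126-161035195, + strand): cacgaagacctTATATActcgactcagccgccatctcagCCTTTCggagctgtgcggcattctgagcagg
Snhg12 (chr4:132308638-132308707, + strand): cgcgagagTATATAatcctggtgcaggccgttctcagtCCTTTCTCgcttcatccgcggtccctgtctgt
Snhg8 (chr3:123508307-123508376, − strand): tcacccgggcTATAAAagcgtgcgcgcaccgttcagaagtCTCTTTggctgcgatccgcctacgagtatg
Snhg5 (chr9:88522868-88522937, − strand): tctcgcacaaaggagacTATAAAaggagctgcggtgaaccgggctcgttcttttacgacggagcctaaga
Snhg1 (chr19:8723447-8723516, + strand): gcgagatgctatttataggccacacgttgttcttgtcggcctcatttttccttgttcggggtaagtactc
The pyrimidine run was found at 4 of the 7 starts (57.1%), at 30 of 68 starts of ribosomal protein genes (44.1%) and at 18.3% of all 32851 promoters. The upstream TATAAA or TATATA was found at 4 of 7 starts of the host genes, against 4.41% for ribosomal protein genes and 2.73% of all promoters. Both stood together at 3 of the 7 starts, in Gas5, Snhg8 and Snhg12, against 2.94% and 0.575%. The searches read the sense strand of these windows, and a match is a description of the letters and not of a bound factor.

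The library totals recovered from the table were 871663–1363928 fragments on genes. Pias4, which encodes PIASy, was at 2.98 and 3.59 FPKM in non-injection, 862 and 611 with PIASy-Mut, and 609.9 and 579 with PIASy-WT, so the libraries of injected embryos stood apart from the others, while this level does not tell wild-type from C335F mRNA. Replicates differed by more than counting noise in each group, and most in PIASy-Mut, where the chi-square per degree of freedom was 14.3 against 3.90 in non-injection and 4.10 in PIASy-WT. The 8 two-cell markers were above 3 fragments in every library, and their sum was 2499–2944 CPM (fragments scaled to a common library total) in the 4 control libraries (non-injection and PIASy-Mut) and 1148–1615 in PIASy-WT. The 8 oocyte markers summed to 3785–6107 in the control libraries and 7357–7671 in PIASy-WT. Their median FPKM went the other way, at 50.7–65.5 in the control libraries and 23.0–25.3 in PIASy-WT, so the sum does not stand for each marker. The 8 cumulus cell markers summed to 14.3–20.7, with 3–6 of them at 0 in each library. The part of these marker levels in the results below was not tested. In pools of whole embryos, fewer cells and less RNA of a kind per cell cannot be told apart.

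All 7 host genes had fragments in all libraries, and only Snhg3 had 3 or fewer in any, with 2 in each of PIASy-Mut 2 and PIASy-WT 1. Levels are FPKM, fragments scaled to counted gene length and to the library's total, so they may be compared between genes within the limits of that length. By the mean over the non-injection libraries the order was Snhg5, Gas5, Snhg8, Snhg1, Snhg6, Snhg12 and Snhg3, from 76.7 ± 39.0 to 7.01 ± 1.50 FPKM (SD, n = 2). Snhg5 and Gas5 overlapped each other, as did Snhg6 with Snhg12 and Snhg12 with Snhg3. Snhg8 and Snhg1 lay within each other's counting intervals. The counted length joins all isoforms and exceeded the median annotated transcript 5.98 times for Gas5, 4.93 times for Snhg1 and 1.62–2.68 times for the others, so levels per transcript are least certain for the first pair.

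**Figure D1:**
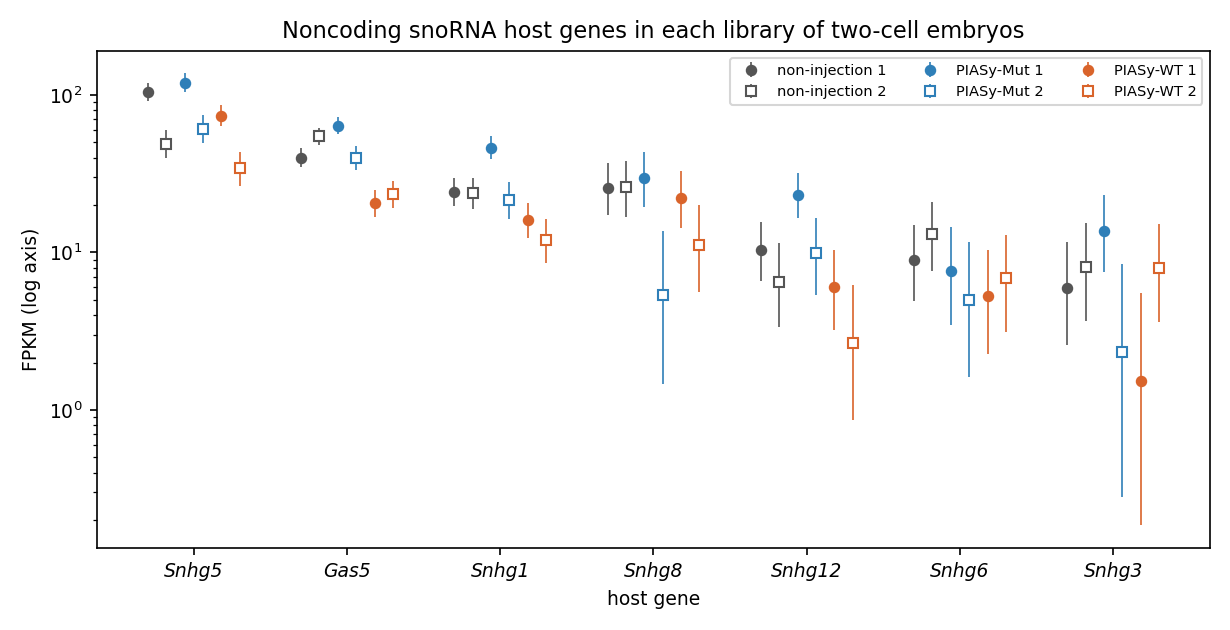
FPKM of the 7 host genes in each library on a log axis, with filled circles for replicate 1, open squares for replicate 2, and bars for the 95% Poisson interval of the fragment count (counting error only). PIASy-WT libraries lie below the 4 others for Gas5, Snhg1 and Snhg12, and PIASy-Mut 1 is the highest library for 6 of the 7 genes.

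Most of the host genes had a lower mean level in PIASy-WT than in the other groups, and none passed the test. The log2 fold change against non-injection was negative for 7 of 7 genes, with a median of -0.75 and a range of -1.05 to -0.50, while the median over all 16100 genes tested was 0.01. By limma, 0 of 7 passed at an adjusted P of 0.05, where 5.76% of all genes tested passed as lower and 1.03% as higher. At an unadjusted P under 0.05 the count was 1, Gas5, against 17.6% of all genes as lower. With voom on fragments recovered from FPKM, a weighting for counts, 1 of the 6 host genes above its fragment filter passed against non-injection, again Gas5, where 19% of all genes in that fit passed as lower. Both PIASy-WT libraries lay below both non-injection libraries for 5 of 7 genes, against 31.9% of all genes tested.

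Gas5 hosts C/D snoRNAs such as Snord47 and was the gene with the most fragments of the 7. It is listed as ENSMUSG00000053332.13, a processed transcript at chr1:161034422-161038539 on the + strand. Its level was 39.97 and 54.6 FPKM in non-injection, 63.9 and 39.7 with PIASy-Mut, and 20.7 and 23.4 with PIASy-WT, from 101–248 fragments per library. Both PIASy-WT libraries were below the 4 others, and the other groups overlapped each other. The mean in PIASy-WT was 22.0 ± 1.91 FPKM, 2.15-fold below the 47.3 ± 10.3 of non-injection and 2.35-fold below the 51.8 ± 17.1 of PIASy-Mut (SD, n = 2). The log2 fold change against non-injection was -1.05 (SE 0.33, 95% interval -1.85 to -0.26) with adjusted P=0.102 by limma. Against PIASy-Mut it was -1.16 (-1.95 to -0.37), with adjusted P=0.0845. Gas5 passed in the voom fit, with adjusted P=0.0267 against non-injection and 0.0180 against PIASy-Mut. It also passed against PIASy-Mut by limma without PIASy-Mut replicate 2 (adjusted P=0.0392), a fit that leaves that group with its higher library alone, takes the spread from the other groups, and passed 11% of all genes as lower. Over the 18 alternative settings the adjusted P of Gas5 ranged from 0.0267 to 0.370 and from 0.0180 to 0.308, and the difference was negative in all of them in both comparisons, with log2 fold changes from -1.27 to -0.76 and from -1.50 to -0.80.

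Snhg1 hosts Snord22 (U22), which acts in 18S rRNA processing, and 7 further snoRNA rows. It is listed as ENSMUSG00000108414.1, at chr19:8723475-8726443 on the + strand. Its level was 24.2 and 23.8 FPKM in non-injection, 46.3 and 21.6 with PIASy-Mut, and 16.01 and 12.01 with PIASy-WT, from 41–142 fragments. Both PIASy-WT libraries were below the 4 others, and the PIASy-Mut replicates differed 2.14-fold. For Snhg1 the log2 fold change was -0.75 (95% interval -1.73 to 0.23) against non-injection, with adjusted P=0.276, and -1.14 (-2.12 to -0.16) against PIASy-Mut, with adjusted P=0.133. Over the alternative settings these ranged from -0.94 to -0.49 and from -1.67 to -0.61. Against PIASy-Mut Snhg1 passed in the voom fit (adjusted P=0.0439) and by limma with PIASy-Mut replicate 1 as the only library of its group (adjusted P=0.0314), with a range of 0.0314 to 0.448 over the settings.

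Snhg12 hosts the C/D snoRNA Snord99 and the H/ACA snoRNAs Snora16a, Snora44 and Snora61. It is listed as ENSMUSG00000086290.8, at chr4:132308678-132311024 on the + strand. Its level was 10.4 and 6.53 FPKM in non-injection, 23.2 and 9.88 with PIASy-Mut, and 6.03 and 2.68 with PIASy-WT, from 5–39 fragments. As for Gas5 and Snhg1, both PIASy-WT libraries were below the 4 others, a pattern that 3 of 7 host genes and 24.4% of all genes tested showed. On the log2 scale the fold change was -0.86 (95% interval -2.18 to 0.45, adjusted P=0.342) against non-injection and -1.68 (-2.99 to -0.36, adjusted P=0.111) against PIASy-Mut. Over the alternative settings these ranged from -1.33 to -0.40 and from -2.25 to -1.10.

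Snhg5 hosts the pair Snord50a and Snord50b printed above and had the highest mean FPKM of the 7 in each group. In non-injection 2 Gas5 was above Snhg5. Snhg5 is listed as ENSMUSG00000097195.9, at chr9:88521050-88522929 on the − strand. Its level was 104 and 49.1 FPKM in non-injection, 119.8 and 61.0 with PIASy-Mut, and 73.7 and 34.2 with PIASy-WT, from 68–246 fragments. Replicate 1 was 1.96–2.16 times replicate 2 in each group, and the groups overlapped. Replicate 1 was higher in all 3 groups for 3 of 7 host genes, Snhg5, Snhg1 and Snhg12, and for 11.0% of all genes tested. For Snhg5 the log2 fold change was -0.50 (95% interval -1.86 to 0.86, adjusted P=0.582) against non-injection and -0.76 (-2.12 to 0.61, adjusted P=0.431) against PIASy-Mut. The first turned to 0.03 without non-injection replicate 1 and to 0.04 without PIASy-WT replicate 2. For Snhg5 the difference between groups was smaller than the spread between replicates.

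The remaining hosts, Snhg6, Snhg8 and Snhg3, rested on few fragments. Snhg6 hosts Snord87, a C/D snoRNA that guides methylation of 28S rRNA, and is listed as ENSMUSG00000098234.7, at chr1:9941959-9944118 on the − strand. It shares 127 counted bases with Mcmdc2 on the opposite strand, which was listed with at most 2 fragments in a library. Snhg6 was at 8.96 and 13.1 FPKM in non-injection, 7.61 and 5.01 with PIASy-Mut, and 5.27 and 6.83 with PIASy-WT, from 5–17 fragments. Both injected groups were below both non-injection libraries and overlapped each other. For Snhg6 the log2 fold change was -0.76 (95% interval -1.65 to 0.13, adjusted P=0.234) for PIASy-WT against non-injection, -0.04 (-0.93 to 0.86) for PIASy-WT against PIASy-Mut, and -0.72 (-1.62 to 0.17) for PIASy-Mut against non-injection.

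Snhg8 hosts the H/ACA snoRNA Snora24 and is listed as ENSMUSG00000104960.1, at chr3:123507552-123508404 on the − strand. It was at 25.8 and 25.9 FPKM in non-injection, 29.5 and 5.38 with PIASy-Mut, and 22.1 and 11.2 with PIASy-WT, from 4–30 fragments. PIASy-WT lay below non-injection and within the wide spread of PIASy-Mut, whose replicates differed 5.49-fold. The log2 fold change was -0.68 (95% interval -2.48 to 1.13, adjusted P=0.576) against non-injection and 0.27 (-1.53 to 2.07, adjusted P=0.852) against PIASy-Mut. Over the alternative settings the first ranged from -1.14 to -0.22.

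Snhg3 hosts Snora73a and Snora73b, also called U17, an H/ACA pair with a part in rRNA cleavage. It is listed as ENSMUSG00000085241.7, at chr4:132348014-132353686 on the − strand. It shares 135 counted bases with Rcc1 on the same strand and 705 of its 986 with Gm17300 on the opposite strand, so its count is uncertain. Gm17300 itself was listed with at most 3 fragments in a library. Snhg3 was at 5.95 and 8.07 FPKM in non-injection, 13.8 and 2.33 with PIASy-Mut, and 1.53 and 7.94 with PIASy-WT, from 2–14 fragments. The groups overlapped, and a library with 2 fragments has a 95% Poisson interval of 0.242–7.22 fragments. The log2 fold change was -0.74 (95% interval -2.86 to 1.38, adjusted P=0.602) against non-injection, so no difference could be shown for Snhg3.

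**Figure D2:**
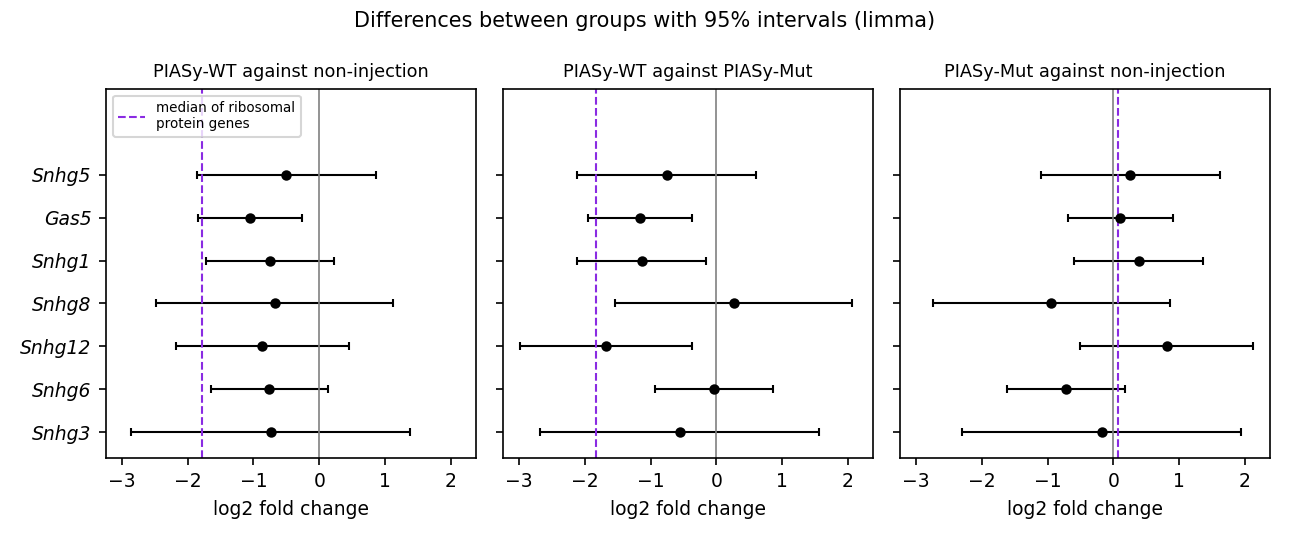
Log2 fold change of each host gene with its 95% interval from limma in the 3 comparisons, with a dashed line at the median of the ribosomal protein genes and a grey line at 0. The points of PIASy-WT against non-injection lie between -1.05 and -0.50, to the right of that panel's dashed line at -1.79. The intervals of Gas5 lie left of 0 in both comparisons of PIASy-WT.

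Against PIASy-Mut, the group that shared injection and selection, 6 of 7 host genes were lower in PIASy-WT, with a median log2 fold change of -0.76 and a range of -1.68 to 0.27. The median was -0.27 without PIASy-Mut replicate 1 and -1.50 without PIASy-Mut replicate 2. By limma 0 of 7 passed, where 6.01% of all genes passed as lower and 0.82% as higher. At an unadjusted P under 0.05 the genes were Gas5, Snhg1 and Snhg12, 3 of 7 against 18.2% of all genes as lower. The voom fit passed 2 of 6, Gas5 and Snhg1, where 18.8% of all genes passed as lower. For the same 3 genes the groups did not overlap, against 31.0% of all genes tested. The comparisons share the PIASy-WT libraries, so they are not independent of each other.

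PIASy-Mut against non-injection gave a median of 0.11 over the host genes, with a range of -0.94 (Snhg8) to 0.81 (Snhg12). The median turned to -0.23 without PIASy-Mut replicate 1 and was 0.74 without PIASy-Mut replicate 2. By limma 0 of 7 passed, 0 had an unadjusted P under 0.05 (2.37% of all genes as higher and 2.09% as lower) and 0 passed by voom (0.0196% of all genes as higher and 0% as lower). Over all genes 0.00621%, Pias4 alone, passed as higher and 0% as lower. For 1 of 7 genes, Snhg6, both PIASy-Mut libraries lay below both non-injection libraries, against 10.8% of all genes tested. PIASy-Mut 1 was the highest of the 6 libraries for 6 of 7 genes, against 26.9% of all genes tested, and PIASy-Mut 2 was the lowest for 2 of 7, Snhg6 and Snhg8, against 6.99%.

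The ribosomal protein genes gave the reference for a coordinated change. All 79 were tested, and PIASy-WT had lower levels of 33 (41.8%) against non-injection and of 36 (45.6%) against PIASy-Mut, with 0 higher. Their median log2 fold change was -1.79 and -1.83, and 78 of 79 were negative against non-injection. The largest decrease was in Rps27, at 64.7 and 67.8 FPKM in non-injection, 89.2 and 36.3 with PIASy-Mut, and 2.89 and 1.67 with PIASy-WT (log2 fold change -4.38, adjusted P=0.0224). Its PIASy-WT levels rested on 4 and 2 fragments. Rpl41 fell by 3.72 on the log2 scale. The highest fold changes were those of Rpl3 (-0.48), Rpl5 (-0.18) and Rpl34 (0.19), and none of them passed. None of the 79 passed in PIASy-Mut against non-injection, where 0 had an unadjusted P under 0.05 and the median was 0.06. Leaving out any 1 non-injection or PIASy-WT library gave no passing gene in either comparison, here, on the lists described below or among all genes tested. The same held against PIASy-Mut without PIASy-Mut replicate 1. Such fits called nothing, so they cannot tell these genes from others. In these fits a group left with 1 library was assumed to vary like the others. Without either PIASy-Mut library 48 ribosomal protein genes passed against non-injection, and without PIASy-Mut replicate 2 it was 54 against PIASy-Mut.

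The host genes and the ribosomal protein genes were set against each other within each library, a ratio that does not depend on library scaling and was chosen after the values were seen. The 7 host genes together had 5.80 and 5.28 fragments per 100 ribosomal protein fragments in non-injection, 6.16 and 5.48 with PIASy-Mut, and 12.9 and 12.4 with PIASy-WT. The 4 control libraries lay close together, although the summed host level in them ranged from 348 to 670.4 CPM, and both PIASy-WT libraries lay above them. Without Gas5 the control libraries were less close, at 3.90 and 2.68 in non-injection and 3.95 and 3.13 with PIASy-Mut. For all 7 genes together the mean ratio in PIASy-WT was 2.29 times that of non-injection and 2.18 times that of PIASy-Mut. A gene whose share of the library did not change would have a higher ratio as well, since all fragments together per 100 ribosomal protein fragments were 4.07 and 4.14 times those of the same groups. The ratio of the hosts thus lay between the ribosomal protein genes and the library as a whole. The summed level of the hosts was 458 and 416 CPM in non-injection, 670.4 and 348 with PIASy-Mut, and 289 and 212 with PIASy-WT. For the ribosomal protein genes the sum was 7884 and 7885 CPM in non-injection, 10886 and 6343 with PIASy-Mut, and 2239 and 1709 with PIASy-WT. Both sums were lowest in the PIASy-WT libraries. Without Rplp0 and Rpl41, which are among the abundant ribosomal protein genes, the ratio in PIASy-WT was 2.03 times that of non-injection, and without Snhg5 it was 2.09 times. The difference between the lists was not tested, since the genes were chosen with results known and 2 libraries against 2 allow no exact permutation P below 0.333.

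**Figure D3:**
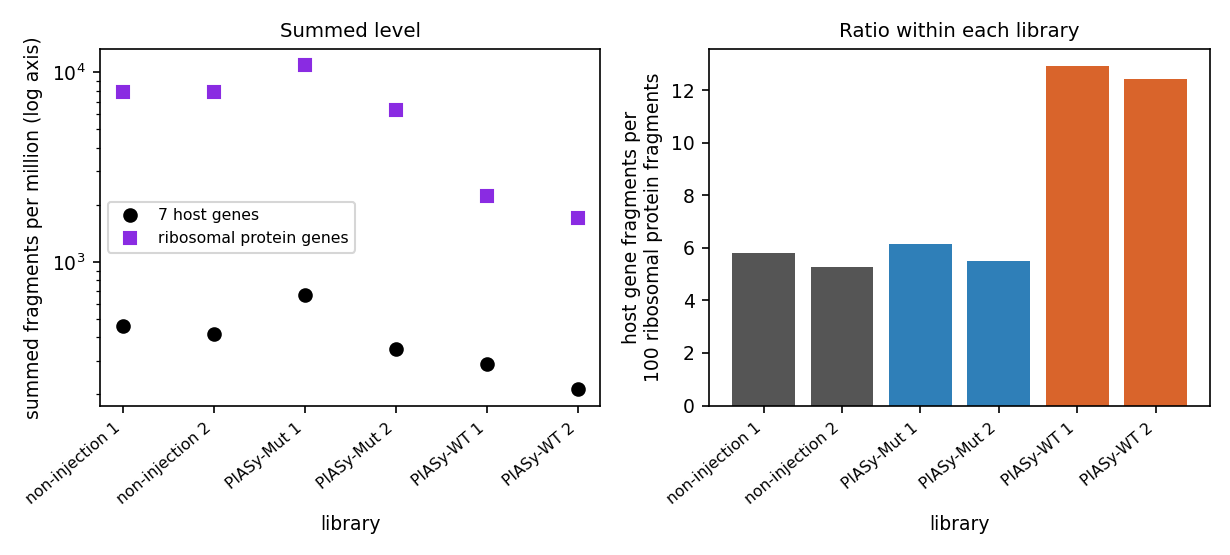
Left, summed CPM of the 7 host genes (circles) and the 79 ribosomal protein genes (squares) in each library on a log axis. Right, host gene fragments per 100 ribosomal protein fragments in each library, between 5.28 and 6.16 in the control libraries and 12.9 and 12.4 in PIASy-WT, 2.29 times the mean of non-injection where all fragments of the library gave 4.07 times.

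By single gene the ratio to ribosomal protein fragments had a higher mean in PIASy-WT than without injection for all 7 hosts, as for 85.8% of all genes tested. The mean ratio in PIASy-WT was 1.91 times that of non-injection for Gas5, 1.99 for Snhg12, 2.27 for Snhg6, 2.33 for Snhg1, 2.51 for Snhg8, 2.72 for Snhg5 and 3.00 for Snhg3. The Gas5 ratio was 1.91 and 2.60 per 100 ribosomal protein fragments in non-injection, 2.21 and 2.35 with PIASy-Mut, and 3.47 and 5.14 with PIASy-WT. That of Snhg3 rested on 1 library, with 0.0744 and 0.101 in non-injection and 0.0674 and 0.458 with PIASy-WT, and was 0.769 times without PIASy-WT replicate 2 and 5.23 times without PIASy-WT replicate 1. For Snhg5 it was 4.25 times without non-injection replicate 1. Against PIASy-Mut the mean ratio was 1.85 times for Snhg1, 1.89 for Gas5, 2.57 for Snhg5 and 4.27 for Snhg6. It was 1.15 times for Snhg12, whose groups overlapped, and 0.848 times without PIASy-WT replicate 1 and 0.998 times without PIASy-Mut replicate 2. For Snhg8 it was 4.62 times, and 9.69 and 3.03 times without PIASy-Mut replicate 1 and 2. For Snhg3 it was 3.27 times, with 0.839 to 7.27 times when any 1 library of the compared groups was left out.

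A higher ratio was not particular to these 7 genes. The other noncoding hosts described below had 2.32 times the ratio of non-injection and 2.42 times that of PIASy-Mut, and the coding hosts that do not encode ribosomal proteins had 3.81 and 4.77 times. Zbed3 alone held 12.6–69.9% of the fragments of those coding hosts, and without it they had 2.198 and 2.25 times. The ratio for the snoRNP proteins described below was 1.10 times that of non-injection, so their sum was lower by nearly the same factor as that of the ribosomal protein genes.

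Other snoRNA hosts were then compared by whether they encode a protein. Of 73 coding hosts, 67 were tested, and 14 passed as lower in PIASy-WT against non-injection and 16 against PIASy-Mut. The 24 that encode ribosomal proteins had medians of -1.55 and -1.61, with 9 and 10 passing. The 43 tested that encode other proteins had medians of -0.76 and -0.85, with 5 and 6 passing, so the median of the host genes described here, -0.75, lay near theirs. Among them Eif3a, a translation initiation factor subunit, fell by 2.26 (adjusted P=0.0372), the RNA-binding protein gene Rbmx fell by 2.07 (adjusted P=0.0304) and Gnl3, the nucleolar protein nucleostemin, fell by 1.97 on the log2 scale (adjusted P=0.0325). The highest were Sf3b3 (0.40), Zbed3 (0.62) and Rab3gap2 (0.82), and these did not pass.

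Of 17 other host rows that the table does not class as protein coding, with Dancr listed more than once, 14 were tested and had medians of -0.56 and -0.66. Against non-injection the median ran from -1.09 with voom to -0.39 with a pseudocount of 5. Against PIASy-Mut it ran from -0.95 with voom to -0.13 without PIASy-Mut replicate 1. Snhg9, which hosts an H/ACA snoRNA, passed against non-injection, with 128 and 217 FPKM in non-injection, 79.4 and 69.0 with PIASy-Mut, and 57.7 and 28.5 with PIASy-WT (log2 fold change -2.01, adjusted P=0.0461). It did not pass against PIASy-Mut (-0.85, adjusted P=0.252), and it rested on 6–45 fragments. Against non-injection Snhg9 passed in 4 of the 18 alternative settings, with adjusted P from 0.0239 to 0.269. Snhg9 lies within the span of the ribosomal protein gene Rps2 on the opposite strand, which also fell, by 2.15 (adjusted P=0.0293). Fragments of this pair cannot be told apart here. Snhg15 stood at -1.46 (adjusted P=0.104) and Cct6a, a chaperonin gene that the table classes as a processed transcript, at -1.33 (adjusted P=0.0897). At the other end Snhg4 stood at 0.28, AA465934 at 1.22 with at most 4 fragments in a library, and Snhg18 at 1.36 (adjusted P=0.0973). By limma no noncoding host on either list was higher in PIASy-WT past the test. At an unadjusted P under 0.05 there was 1 against non-injection, Snhg18, and 1 against PIASy-Mut, AA465934 (log2 fold change 1.62). The voom fit passed Snhg18 as higher against non-injection, as it did 8.51% of all genes.

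**Figure D4:**
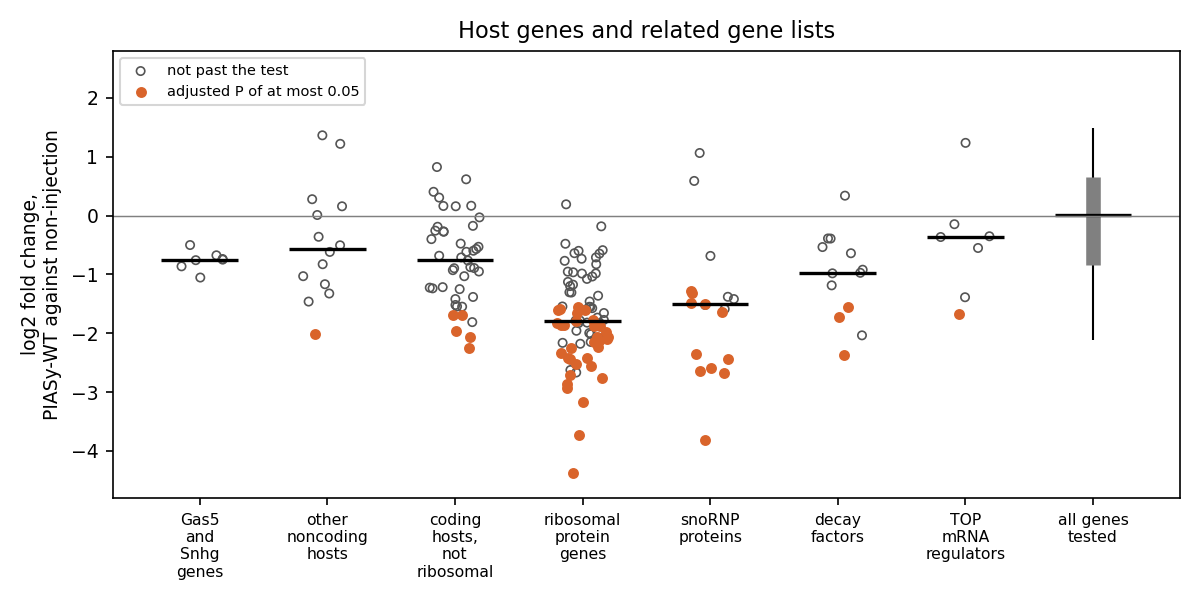
Log2 fold change of PIASy-WT against non-injection for the tested genes of each list, with filled points for an adjusted P of at most 0.05 by limma and a black bar at the list's median. For all 16100 genes tested the line spans the 5th to 95th percentile and the grey block the middle quartiles. The host genes lie between -1.05 and -0.50 with no filled point, and the medians of the ribosomal protein and snoRNP lists are -1.79 and -1.51.

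The proteins that assemble with snoRNAs had the largest share passing among these lists. Of 19 genes for snoRNP proteins and assembly factors, 18 were tested and 11 were lower in PIASy-WT in each comparison, with medians of -1.51 and -1.75. Znhit6, an assembly factor of C/D snoRNPs, was at 151 and 109 FPKM in non-injection, 187 and 77.3 with PIASy-Mut, and 7.67 and 8.84 with PIASy-WT (log2 fold change -3.81, adjusted P=0.0224). Nhp2, a core H/ACA protein, fell by 2.67 (adjusted P=0.0224) and Nufip1, an assembly factor, fell by 2.63 on the log2 scale (adjusted P=0.0293). Fbl, the 2′-O-methyltransferase, stood at -0.69 (adjusted P=0.335), the assembly helicase gene Ruvbl2 at 0.59, and Naf1, an H/ACA assembly factor with at most 12 fragments in a library, at 1.06. In PIASy-Mut against non-injection 0 of 18 passed, and 0 had an unadjusted P under 0.05.

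Factors of nonsense-mediated decay, the pathway known to degrade spliced Gas5, came next. Of 14 genes, 13 were tested and 3 passed as lower in each comparison, with medians of -0.97 and -0.94. They were members of the exon junction complex, Eif4a3 (-2.37, adjusted P=0.0339), Rbm8a (-1.72, adjusted P=0.0433) and Magoh (-1.56, adjusted P=0.0376), while Casc3 of the same complex missed the threshold (-2.04, adjusted P=0.0594). Upf2 (-0.39), the kinase gene Smg1 (-0.39) and Upf3a (0.34) did not pass. Of 10 regulators of TOP mRNAs, 7 were tested and 1 passed as lower in each comparison, Cnbp (-1.67, adjusted P=0.0464 against non-injection). Larp1, which binds TOP mRNAs, stood at -1.39 (adjusted P=0.153) with 1–29 fragments, Tial1 at -0.55, Mtor at -0.35, Rps6kb1 at -0.15 and Eif4ebp1 at 1.23.

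The genes described here that lie next to the hosts on the chromosome did not pass the test. Zbtb37 overlaps the 5′ end of Gas5 on the opposite strand and had a log2 fold change of 0.34 (adjusted P=0.601) against non-injection. Slc3a2 begins 106 bases from Snhg1 and was at 25.8 and 42.3 FPKM in non-injection and 47.7 and 54.7 in PIASy-WT, with a log2 fold change of 0.61 (adjusted P=0.249). Trnau1ap, 739 bases from Snhg12, stood at -0.05 and Phactr4, near Snhg3, at -0.10. Rcc1, which overlaps most of the span of Snhg3, stood at -0.88 (adjusted P=0.336). Whether counting used the strand is not given in the sources used here, and fragments of overlapping genes cannot be told apart.

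The pattern of the host genes over the libraries was summarised as the mean deviation of the 7 genes from their own means, on the log2(FPKM + 1) scale. It was 0.29 and 0.24 in non-injection, 0.85 and -0.40 with PIASy-Mut, and -0.42 and -0.57 with PIASy-WT, so this mean in PIASy-Mut 2 lay next to PIASy-WT. The mean weights all genes alike, and in PIASy-Mut 2 it was lowest for Snhg8 (-1.53), Snhg3 (-0.95) and Snhg6 (-0.49). These rested on 4, 2 and 5 fragments. Gas5, Snhg1 and Snhg12 had 0.085, -0.023 and 0.25 in PIASy-Mut 2, above both of their PIASy-WT values. Snhg5, at -0.14, lay between its own. Among 5486 genes with at least 30 fragments per library on average, the closest by Pearson's r over the 6 libraries were Ewsr1 (0.996), Ube2e3 (0.994), Cnn3 (0.989), D030056L22Rik (0.989) and Pibf1 (0.989). Ewsr1, an RNA-binding protein gene, was at 8.19 and 8.23 FPKM in non-injection, 13.9 and 4.47 with PIASy-Mut, and 3.704 and 3.39 with PIASy-WT. For 58 ribosomal protein genes among these the median r was 0.82, against a median of 0.22 and an upper quartile of 0.81 for the 5486. These values describe 6 libraries that share their preparation and carry no test.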

How the data were processed

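RNA-seq libraries of two-cell embryos were made by the authors with the SMART-Seq v4 (11 PCR cycles) and Nextera XT (13 cycles) kits. The submitters' processing notes name Trim Galore, STAR, featureCounts and mm10. The authors counted uniquely mapped reads per gene and deposited FPKM for each gene and library without spike-in rows, so values are shares of a library. The annotation release and strand setting are not given in the sources used here.

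FPKM times gene length, divided by the value of 1 fragment, gave whole numbers (within 0.01) for 100% of the values, and depth was recovered from these. P-values measure the spread between 2 pools of embryos per group, and whether pools came from separate days or parents is not stated. The comparisons used limma (3.58.1, R 4.3.3; lmFit, eBayes with trend, 3 residual and 3.12 prior degrees of freedom) on log2(FPKM + 1) over all 6 libraries and the 16100 genes with FPKM at or above 1 in 2 or more libraries. P-values were two-sided and adjusted by Benjamini-Hochberg over all genes tested. The log2 fold changes are on this scale, which understates changes of low genes. The authors tested counts with DESeq2. Here the deposited FPKM was the basis of the main test, fragments recovered from it entered only a voom alternative, and no negative binomial test was run. The procedure was tested on simulated data. Intervals for fragments are 95% Poisson intervals. Gene and snoRNA sequences came from GENCODE M21 transcripts, in which 50248 of 53023 versioned identifiers were found, and promoters from RefSeq on GRCm38.p6.

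The members and lists were chosen with earlier results of these data known. Named were all members, the snoRNAs inside them, genes within 5000 bases with at least 10 fragments, the 3 highest and 3 lowest genes of each list, the 5 genes most alike and Pias4. For coding hosts the 3 highest and lowest are given among those that do not encode ribosomal proteins. Some genes these rules name are not reported here. Lists were described by counts and medians without a set test. Replicate numbers did not pair the libraries (correlation of replicate differences 0.00368–0.0851 between groups). Alternatives changed the pseudocount (0.1 and 5), filter, scaling, eBayes settings and samples, added a replicate block, used voom on recovered fragments or left out each library. Tables and plots were made with pandas 2.3.3, scipy 1.17.1 and matplotlib 3.10.9 under Python 3.11.15.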

Additional observations from a re-analysis of the deposited data

How the results depend on the processing

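With 2 libraries per group and 2–248 fragments per host gene and library, the 95% intervals were widest for Snhg3 and Snhg8, followed by Snhg5 and Snhg12, and differences near 0.50 on the log2 scale could not be shown for any host. Host genes passing as lower in PIASy-WT numbered 0 against non-injection in 17 of 18 settings and 1 with voom on recovered fragments, and against PIASy-Mut 2 with voom and 0–2 when libraries were left out. Settings that left out a non-injection or PIASy-WT library called no gene of all those tested. Snhg3 was below the fragment filter of voom. Gas5, Snhg1, Snhg12, Snhg6 and Snhg8 kept a negative sign against non-injection in all 18 settings. Snhg6 against PIASy-Mut turned to 0.21 with quantile normalization and 0.061 with median ratio scaling. When each library was left out in turn, the log2 fold change against non-injection ranged from -1.04 to 0.041 for Snhg5 and from -1.65 to 0.17 for Snhg3. Against PIASy-Mut it ranged from -0.30 to 0.22 for Snhg6, -1.63 to 0.52 for Snhg3 and -0.86 to 1.40 for Snhg8. For PIASy-Mut against non-injection it ranged from -0.23 to 0.44 for Gas5, -0.28 to 0.79 for Snhg5, -1.25 to 0.89 for Snhg3, -0.14 to 0.92 for Snhg1 and -2.07 to 0.19 for Snhg8.

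Ribosomal protein genes passing as lower against non-injection and PIASy-Mut numbered 7 and 8 without a filter, 55 and 56 with FPKM of at least 5, 7 and 15 without a trend, and 59 and 58 with voom. They numbered 21 against non-injection with scaling to genes outside the lists, 19 against PIASy-Mut with quantile normalization and 0 against PIASy-Mut with only the groups compared. Leaving out libraries gave 0–48 against non-injection and 0–54 against PIASy-Mut. The next count includes ribosomal protein genes that are coding hosts, 9 passing against non-injection and 10 against PIASy-Mut. The coding and other noncoding hosts, snoRNP, decay and TOP genes together gave 30 passing as lower in each comparison. This became 4 and 7 without a filter, 18 and 17 with quantile normalization, 4 and 11 without a trend, 50 and 50 with voom, 18 against PIASy-Mut with median ratio scaling, 17 against non-injection with scaling to genes outside the lists, 0 against PIASy-Mut with only the groups compared, and 0–41 and 0–46 when libraries were left out. As higher, 1 passed against PIASy-Mut with FPKM of at least 5, 1 in each comparison with voom and 0–2 against PIASy-Mut when libraries were left out. The cause of these moves was not tested. The median of all genes tested moved by over 0.1 with FPKM of at least 5, to -0.11 and -0.14, and with quantile normalization against PIASy-Mut, from -0.03 to 0.08. Over all settings the calls over all genes ranged from 0 to 1941 and from 0 to 1913 as lower, and from 0 to 867 and from 0 to 865 as higher.

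The ratio of host to ribosomal protein fragments in PIASy-WT over non-injection, 2.29, was 2.09 without Snhg5, 2.54 without Gas5, 2.03 without Rplp0 and Rpl41, 2.504 from sums of FPKM, and 2.18–2.398 when libraries were left out, in settings chosen after seeing the data. Leaving out 1 library, that of Snhg3 ranged from 0.769 to 5.23 and those of the other hosts from 1.46 to 4.25.

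The replicate numbers did not pair the libraries. With the replicate block, 0 host genes passed in any comparison, 25 and 33 ribosomal protein genes passed as lower against non-injection and PIASy-Mut, and calls over all genes went from 928 to 719 and from 968 to 799 as lower and from 166 to 89 and from 132 to 67 as higher. Snhg9 was not called under the block, and no other count above moved by over 1.5 times.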
